A study of Mus musculus with 32 samples.

Results

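The replication-dependent histone genes supply the linker histone H1 and the core histones H2A, H2B, H3 and H4 that package newly copied DNA. They were taken as the protein-coding mouse genes whose symbols are H1f1 to H1f6, or H2ac, H2bc, H3c or H4c followed by a number. The rule found 63 genes among 49997 genes of the annotation, 21900 of them protein-coding. They comprised 6 H1, 17 H2A, 16 H2B, 12 H3 and 12 H4 genes. Of these, 53 lay on chromosome 13 between positions 21715711 and 23934913, and 10 on chromosome 3 between 96219885 and 96270192 (mm10). The annotated gene bodies had a median length of 492 bp, and 58 of the 63 spanned at most 1000 bp.

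N6-methyladenosine (m6A), a methyl mark on adenosines of RNA, was mapped by antibody enrichment and sequencing (MeRIP-seq) in mouse embryonic stem cells of the C57BL/6 strain. Per the labels, all cells grew with LIF at 1000 U/ml, the GSK3 inhibitor CHIR99021 at 3 µM and the MEK inhibitor PD0325901 at 1 µM. The 8 groups of 2 libraries were the Mettl14 CKO and the Mettl14 control, and the Mettl3 CKO and the Mettl3 control, each as chromatin-associated RNA depleted of ribosomal RNA (caRNA) and as polyadenylated RNA (mRNA). METTL3 is the catalytic subunit and METTL14 the RNA-binding partner of the m6A methyltransferase. The CKO lines are called knockouts here, although the labels state neither how the allele was deleted nor how completely. The labels do not say that the 2 libraries of a group came from separate cultures, so their spread may be technical.

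Replication-dependent histone mRNAs are made in large amounts during S phase and are an exception among messenger RNAs. Their genes mostly lack introns, and the transcripts end in a conserved stem-loop rather than a poly(A) tail. The stem-loop is bound by SLBP, and the 3′ end is cut by a complex that contains the U7 small nuclear ribonucleoprotein. Polyadenylated copies also occur, and selection for poly(A) favours those. H2A, H2B, H3 and H4 form the octamer around which DNA winds, and H1 binds where the DNA enters and leaves it. Many members are nearly identical in sequence, so reads can be shared or split between copies in a way the peak lists do not record.

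The upstream sequences are shown for members that the results turn on. They run 5′ to 3′ and cover 250 bases before to 50 bases after the annotated start (RefSeq, GRCm38.p6, the same build as mm10). H2ac8 (chr13:23571171-23571470, minus strand) and H1f4 (chr13:23622509-23622808, minus strand) encode an H2A and a linker histone and had peaks in knockout lists where controls had none. Capitals in H2ac8 mark CCAAT and the octamer ATTTGCAT on either strand. Capitals in H1f4 mark the H1 box (AAACACA), the CCAAT box and a TATA box (TATAAA).
H2ac8: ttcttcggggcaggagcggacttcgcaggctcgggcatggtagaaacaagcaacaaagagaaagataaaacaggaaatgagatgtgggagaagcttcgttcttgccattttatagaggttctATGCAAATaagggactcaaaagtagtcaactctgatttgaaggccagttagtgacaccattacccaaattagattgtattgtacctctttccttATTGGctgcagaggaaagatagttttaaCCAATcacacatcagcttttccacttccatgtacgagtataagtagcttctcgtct
H1f4: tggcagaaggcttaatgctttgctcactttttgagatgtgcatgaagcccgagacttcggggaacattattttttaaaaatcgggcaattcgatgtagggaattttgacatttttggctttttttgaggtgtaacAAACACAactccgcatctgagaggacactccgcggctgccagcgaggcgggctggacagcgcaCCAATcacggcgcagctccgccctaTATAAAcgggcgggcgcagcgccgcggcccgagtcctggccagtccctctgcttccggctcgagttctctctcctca
H3c15 (chr3:96239078-96239377, minus strand) and H3c14 (chr3:96246435-96246734, plus strand) are shown as neighbouring H3 genes, of which H3c15 was lost in mRNA of the Mettl3 line. Capitals mark the longest run the pair shares, 231 bases, which lies before the annotated start of both.
H3c15: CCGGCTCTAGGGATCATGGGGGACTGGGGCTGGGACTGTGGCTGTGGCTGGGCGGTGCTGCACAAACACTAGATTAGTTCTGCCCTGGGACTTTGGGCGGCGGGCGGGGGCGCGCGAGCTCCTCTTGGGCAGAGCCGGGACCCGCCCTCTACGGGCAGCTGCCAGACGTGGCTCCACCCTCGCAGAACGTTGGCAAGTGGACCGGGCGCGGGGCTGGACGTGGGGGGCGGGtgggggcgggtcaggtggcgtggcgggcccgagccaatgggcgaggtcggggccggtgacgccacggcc
H3c14: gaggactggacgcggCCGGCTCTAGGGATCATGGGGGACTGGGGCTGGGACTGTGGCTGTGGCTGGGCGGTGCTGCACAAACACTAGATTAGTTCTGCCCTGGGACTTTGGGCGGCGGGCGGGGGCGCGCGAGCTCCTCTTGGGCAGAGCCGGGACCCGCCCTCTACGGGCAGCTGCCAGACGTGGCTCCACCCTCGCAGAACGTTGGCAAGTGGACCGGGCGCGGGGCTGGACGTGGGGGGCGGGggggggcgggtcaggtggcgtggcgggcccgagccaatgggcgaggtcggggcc
H4c18 (chr13:21832148-21832447, minus strand) was the only member with peaks in mRNA lists and in no caRNA list, and H4c17 (chr13:21811496-21811795, plus strand) had no peak in any list. Their windows share the 285 bases in capitals and differ by an edit distance of 3.
H4c18: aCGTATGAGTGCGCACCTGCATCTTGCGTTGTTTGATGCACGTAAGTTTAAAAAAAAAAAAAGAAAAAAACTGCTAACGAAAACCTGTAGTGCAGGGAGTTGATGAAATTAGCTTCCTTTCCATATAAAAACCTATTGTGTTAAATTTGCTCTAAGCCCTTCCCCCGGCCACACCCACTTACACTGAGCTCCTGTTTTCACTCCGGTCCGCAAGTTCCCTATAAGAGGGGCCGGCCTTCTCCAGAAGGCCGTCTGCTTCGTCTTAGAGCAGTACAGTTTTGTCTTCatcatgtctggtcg
H4c17: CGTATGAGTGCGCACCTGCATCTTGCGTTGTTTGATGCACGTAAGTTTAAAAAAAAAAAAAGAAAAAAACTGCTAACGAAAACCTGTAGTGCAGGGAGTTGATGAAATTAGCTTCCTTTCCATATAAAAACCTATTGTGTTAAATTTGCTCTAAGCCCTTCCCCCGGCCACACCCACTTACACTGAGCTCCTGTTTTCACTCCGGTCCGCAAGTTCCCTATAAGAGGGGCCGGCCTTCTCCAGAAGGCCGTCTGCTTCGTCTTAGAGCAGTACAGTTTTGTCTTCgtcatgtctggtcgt

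The measurement was the presence of an m6A peak, called by the authors in each library, with its summit in the gene body. Fold is the authors' own enrichment value of a peak, and the highest peak of a gene stands for it in each list. How folds were scaled between libraries is not given in the sources used here, so folds of different lists are set side by side without a test. Lists held 37955 to 45241 peaks in caRNA and 16537 to 23239 in mRNA. Read depth is unknown, and lower methylation, less RNA and lower depth cannot be told apart where a peak is missing. Peaks were found in at least 1 caRNA list for 10 of 10 embryonic stem cell markers and for 8 of 8 fibroblast markers, which says nothing about their RNA level.

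Peaks on histone genes were found mainly in chromatin-associated RNA. In at least 1 caRNA list 56 of the 63 members had a peak, against 26 in at least 1 mRNA list, while the same held for 59.3% and 52.1% of all protein-coding genes. Among the 1527 other protein-coding genes of at most 1000 bp, only 3.73% had a peak in a caRNA list and 3.08% in an mRNA list. By class, caRNA peaks were found on 6 of 6 H1, 16 of 17 H2A, 15 of 16 H2B, 11 of 12 H3 and 8 of 12 H4 genes. In mRNA they were found on 2 H1, 11 H2A, 5 H2B, 6 H3 and 2 H4 genes. The members with no peak in any list were H2ac21, H2bc1, H3c6, H4c3, H4c8 and H4c17.

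Of the 63 members, 19 had a peak in all 8 caRNA lists, and H2ac10 and H2bc4 were the only members with one in all 8 mRNA lists. The linker histone gene H1f3 and the H2B gene H2bc3 had peaks in 8 of 8 caRNA lists and in 0 of 8 mRNA lists. H1f3 had sense folds of 2.13 and 2.04 in Mettl14 knockout caRNA, 1.84 and 1.60 in its controls, 2.31 and 2.31 in Mettl3 knockout caRNA, and 2.13 and 2.22 in its controls. H2bc3 had 3.81 and 3.84 in Mettl14 knockout caRNA, 2.33 and 1.86 in its controls, 4.32 and 3.69 in Mettl3 knockout caRNA, and 3.3 and 3.31 in its controls. H1f3 also had antisense peaks, with folds of 2.32 and 2.05 in Mettl14 knockout caRNA and none in its controls, and of 9.80 and 8.40 in Mettl3 knockout caRNA, against 7.17 and 4.94 in its controls. Both genes thus carried sense peaks of low fold in every caRNA group and none in polyadenylated RNA, while the strongest H1f3 peaks were antisense.

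**Figure D1:**
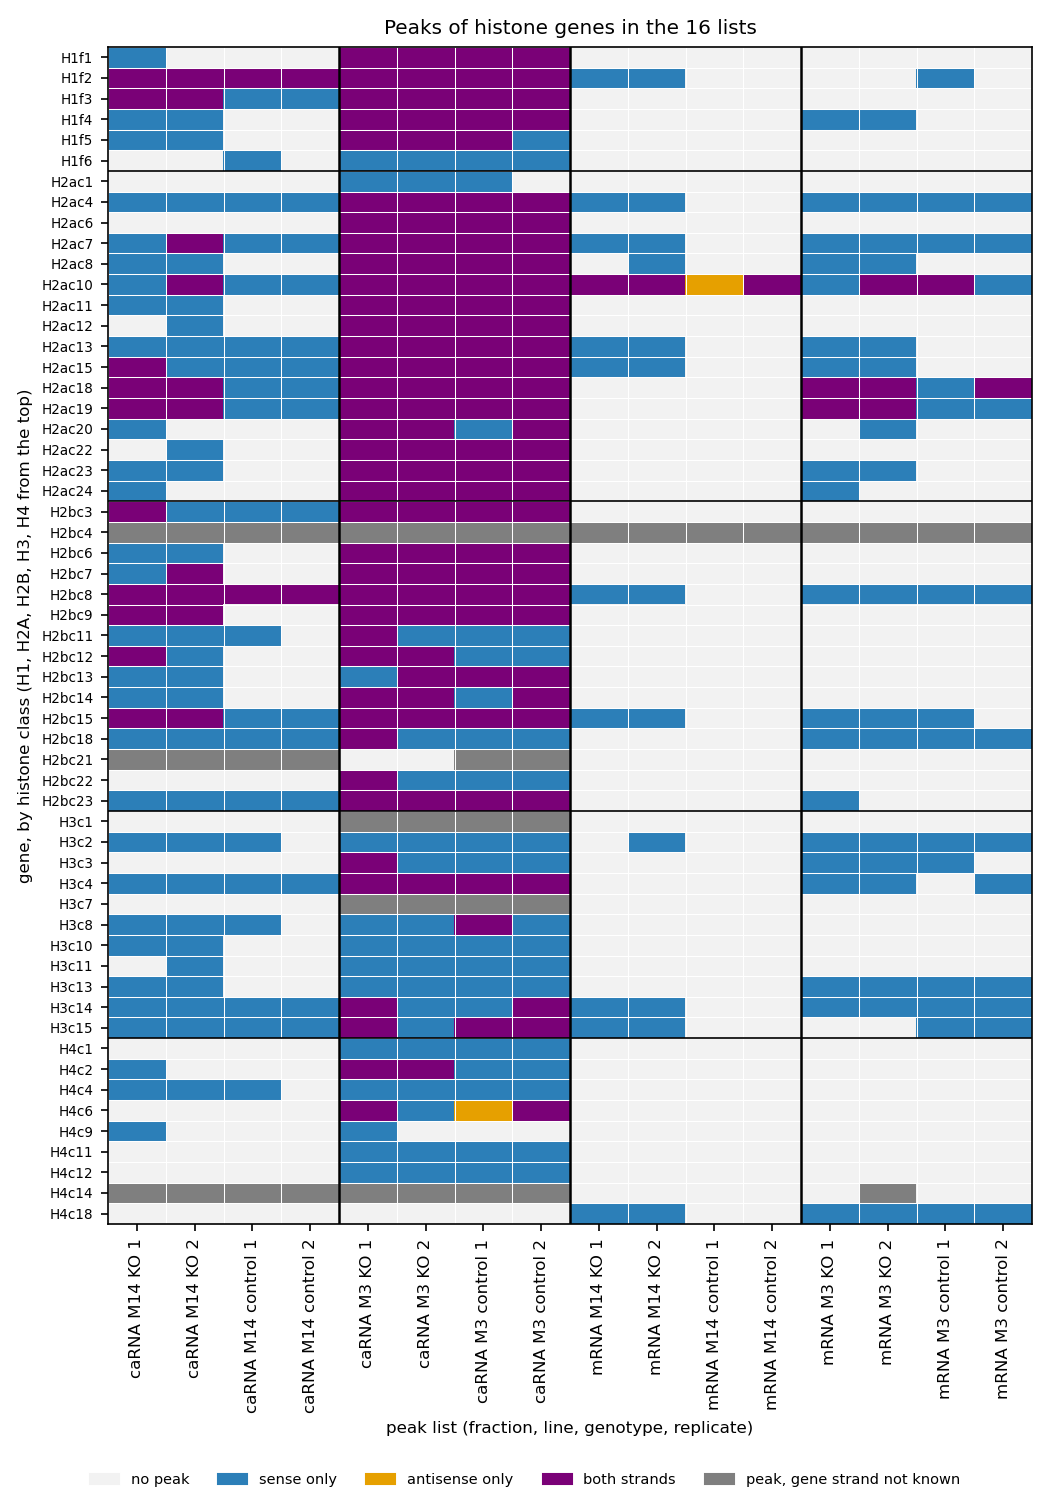
Presence of a peak in each of the 16 lists (columns) for the 57 histone genes with any peak (rows, by class). M14 and M3 are the Mettl14 and Mettl3 lines, KO the knockout, and colours give the strand of the peak relative to the gene. Peaks fill most of the caRNA columns of the Mettl3 line and are fewest in the mRNA columns of the Mettl14 controls, with 2 genes in each.

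H4c18 showed the opposite pattern. This H4 gene had sense folds of 3.95 and 4.88 in Mettl14 knockout mRNA and no peak in its controls. It had 8.48 and 8.11 in Mettl3 knockout mRNA, against 6.10 and 9.03 in its controls, and none in caRNA. H4c18 was thus the sole member seen only in polyadenylated RNA, and it had mRNA peaks in every group but the Mettl14 controls.

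Peak presence in caRNA over mRNA was tested for each of 17098 genes with a peak in any list, using an exact two-sided permutation test within the 4 combinations of line and genotype. No member passed an adjusted p of 0.05 in either direction, nor did any other gene (0% called). The smallest p that the design allows is 0.00154. It was reached by H1f3 and H2bc3 and gave an adjusted p of 0.0594 (Benjamini-Hochberg, exact permutation test). At an unadjusted p of 0.05, 25 of the 57 members tested had peaks more often in caRNA, against 11.8% of all genes tested. In the direction of mRNA it was H4c18 alone (unadjusted exact p = 0.00926, adjusted p = 0.117), against 1.91% of all genes. By class the 25 were 5 H1 genes (H1f1, H1f2, H1f3, H1f5 and H1f6), 3 H2A genes (H2ac11, H2ac12 and H2ac22), 10 H2B genes (H2bc3, H2bc6, H2bc7, H2bc9, H2bc11 to H2bc14, H2bc21 and H2bc23), 4 H3 genes (H3c4, H3c8, H3c10 and H3c11) and 3 H4 genes (H4c2, H4c4 and H4c14). With only the 10000 strongest peaks of each list the count was 7 of 48 members tested. In that setting 1425 of all 11182 genes were past an unadjusted exact p of 0.05 in either direction.

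H2ac10 and H2bc4, the 2 members seen in every mRNA list, differed in their folds. H2ac10, an H2A gene, had some of the highest sense folds of the family. In caRNA they were 13.9 and 11.9 in Mettl14 knockouts, 9.71 and 3.49 in their controls, 9.95 and 13.1 in Mettl3 knockouts, and 5.39 and 5.52 in their controls. In mRNA they were 9.26 and 7.26 in Mettl14 knockouts, against a single control list at 3.97, and 16 and 17.3 in Mettl3 knockouts, against 6.39 and 14.7 in their controls. H2ac10 was higher in both knockout lists than in both control lists in each of the 3 comparisons with all 4 values. H2bc4, an H2B gene whose annotated body spans 8282 bp, had summits near both ends of that body. Its best peak therefore need not be the same site in each list. Its best peak in caRNA had folds of 4.44 and 5.10 in Mettl14 knockouts, against 2.62 and 2.26 in their controls, and 13.8 and 13.6 in Mettl3 knockouts, against 9.68 and 5.48 in their controls. As for H2ac10, both knockouts lay above both controls in caRNA of both lines. The best H2bc4 peak in mRNA had folds of 4.16 and 2.59 in Mettl14 knockouts, against 1.66 and 2.1 in their controls, and 2.93 and 2.55 in Mettl3 knockouts, against 3.08 and 2.42 in their controls. The H2bc4 genotypes overlapped in mRNA of the Mettl3 line and not of the Mettl14 line.

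In the Mettl14 knockouts, more histone genes carried a caRNA peak than in their controls. Mettl14 knockout lists held 42 and 40 members and control lists 25 and 20, or 41.0 ± 1.41 against 22.5 ± 3.54 (SD, n = 2 each). No member was lost (peak in both controls and neither knockout) among 20 with a peak in both controls, where 5.72% of all genes were. Gained members (peak in both knockouts and neither control) were 13 of 37 with a peak in both knockouts, against 3.27% of all such genes and 6 of 35 other short genes. All 20 members with a peak in both controls were retained in both knockouts, as were 87.9% of all genes. A comparison of 2 against 2 libraries cannot reach an exact p below 0.333, so these calls have no test of their own. The knockout lists held 38272 and 39385 peaks, against 42514 and 41315 in the controls. None of 5 fibroblast and 9 embryonic stem cell markers was lost or gained in this comparison. The part of list length, enrichment or other cells in the histone counts was not tested.

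The gained members came from 4 of the 5 classes. The linker histone genes H1f4 and H1f5 had knockout sense folds of 1.53 and 1.45, and of 2.42 and 2.52. Gained H2A genes were H2ac8 at 4.72 and 4.03, H2ac11 at 6.69 and 3.06, and H2ac23 at 4.30 and 3.49. No H4 gene was gained, of 2 with a peak in both knockouts, and these folds overlapped those of retained members.

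H2B genes were the most numerous among the gained members, and also among all members with a peak in both knockouts. The latter were 14 H2B, 10 H2A, 7 H3, 4 H1 and 2 H4 genes. Knockout sense folds were 2.41 and 2.31 for H2bc6, 4.21 and 3.99 for H2bc7, 2.75 and 3.58 for H2bc9, and 4.24 and 3.44 for H2bc12. They were 4.41 and 5.11 for H2bc13 and 3.16 and 2.47 for H2bc14. The H3 genes H3c10 and H3c13 had 2.20 and 2.68, and 2.23 and 1.83. None of these genes had a peak on either strand in a Mettl14 control caRNA list. H1f6, a testis-type H1 gene, was the one member with a caRNA peak in a Mettl14 control (3.92 in replicate 1) and in neither knockout.

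**Figure D2:**
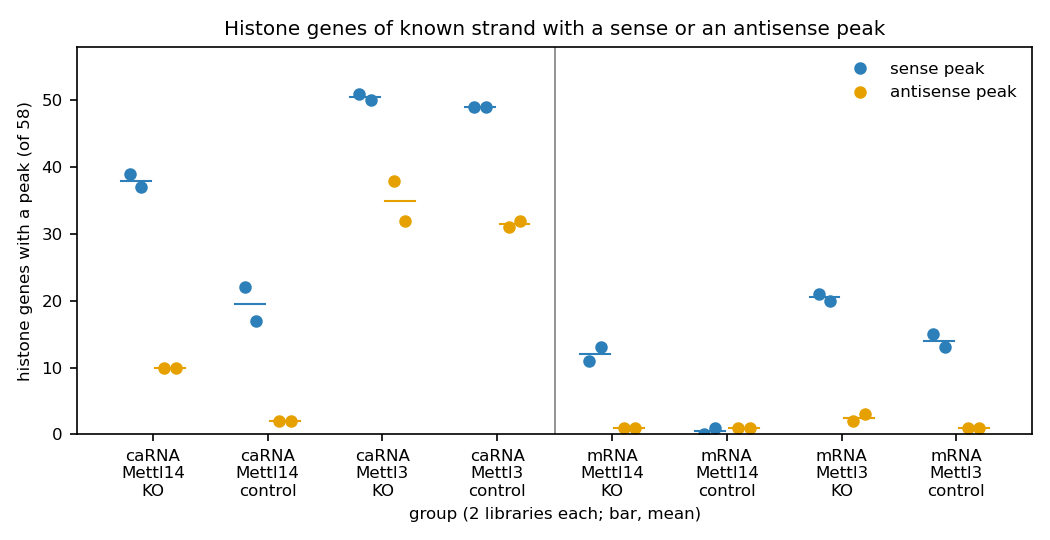
Number of histone genes, of 58 with a known strand, that had a sense or an antisense peak in each of 2 libraries per group. Points are libraries, bars group means. In caRNA of the Mettl14 line the knockout lists held 39 and 37 genes with a sense peak, against 22 and 17 in the controls, while in the Mettl3 line all 4 lists held 49 to 51.

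Polyadenylated RNA of the Mettl14 line showed the same direction from a smaller base. Knockout lists held 12 and 14 members and control lists 2 and 2. Gained members were 10 of 12 with a peak in both knockouts, against 13.7% of all such genes and 7 of 29 other short genes. The 10 were H1f2, H2ac4, H2ac7, H2ac13, H2ac15, H2bc8, H2bc15, H3c14, H3c15 and H4c18. No member was lost of 2 (1.84% of all genes), and H2ac10 and H2bc4 were retained (96.7% of all genes). The knockout lists were also longer here, with 23380 and 22654 peaks, against 16537 and 17738 in the controls. Of 4 fibroblast markers with a peak in both knockouts, 3 were gained (Col1a1, Acta2 and Col6a1), and the pluripotency gene Pou5f1 was lost, 1 of 7 embryonic stem cell markers. Of the same lists Fn1 was lost, 1 of 2, and Tdgf1 was gained, 1 of 8. The part of list length or of other cells in the histone counts was not tested.

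Among these, H2ac13 had the highest folds, 9.34 and 5.39 in the knockouts. H2ac4 had 4.86 and 4.51, H2ac7 2.64 and 4.47, and H2ac15 2.84 and 2.69. The other classes lay in the same range. H1f2 had 2.70 and 2.57, H2bc8 2.81 and 2.95, and H2bc15 2.35 and 2.84. H3c14 had 3.58 and 3.40, and H3c15 6.14 and 3.93. Each of these 10 genes was without a peak in both Mettl14 control mRNA lists, and all but H4c18 had a peak in all 4 caRNA lists of that line. With the 10000 strongest peaks of each list, 8 members were gained in caRNA and 2 in mRNA.

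In caRNA of the Mettl3 line, nearly every member had a peak in both genotypes. Knockout lists held 55 and 54 members and control lists 55 and 54. Of 54 members with a peak in both controls, 53 were retained, against 88.3% of all genes. None of the 54 with a peak in both knockouts was gained (4.99% of all genes). With the 10000 strongest peaks of each list, 11 were gained. Fibroblast markers gained in this comparison were 4 of 8 (Thy1, Acta2, Col6a1 and Mmp2), and their part in the histone folds was not tested.

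The 1 lost member of the 54 (6.13% of all genes) was H2bc21, an H2B gene on chromosome 3. It had folds of 3.5 and 3.47 in the Mettl3 controls and no peak in the knockouts. In the Mettl14 line it had 5.11 and 4.44 in knockouts, against 4.74 and 4.37 in controls. Its peaks lay 237 to 363 bases from the low end of a body of 2667 bp, and its strand is not in the sequence table. The H2bc21 peak was thus absent from the Mettl3 knockouts alone among the caRNA groups.

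In mRNA of the Mettl3 line the knockouts held more members, 22 and 22, against 16 and 14 in the controls. Gained members were 5 of 20, against 5.08% of all genes with a peak in both knockouts and 0 of 25 other short genes. They were H1f4 with knockout folds of 1.62 and 3.83, H2ac8 with 8.01 and 9.95, H2ac13 with 6.79 and 9.54, H2ac15 with 10.3 and 3.96, and H2ac23 with 2.94 and 3.31. Of 13 members with a peak in both controls, 12 were retained (90.5% of all genes). Pou5f1 and Nanog were lost here, 2 of 9 embryonic stem cell markers, while 0 of 5 fibroblast markers were gained, and their part was not tested. List lengths were alike, at 22521 and 23239 peaks in the knockouts and 22165 and 22592 in the controls.

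H3c15 was the 1 lost member of 13 (4.27% of all genes). It had no mRNA peak in the Mettl3 knockouts and folds of 6.86 and 7.98 in their controls. Its neighbour H3c14, which encodes an H3 of the same cluster and lies 7557 bases away, had 12.5 and 13.2 in the knockouts, against 8.52 and 5.32 in the controls. H3c13, also of that cluster, had 10.9 and 11.2, against 4.09 and 3.87. The pair whose upstream windows share 231 bases thus went opposite ways in this comparison. That shared run lies before the annotated starts, and the gene bodies, where the peaks lie, were not compared. Whether reads were assigned differently between the copies was not tested. With a rule that counts any peak covering 50% of itself or of the gene, no member was lost.

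Over the 4 comparisons together, no member passed the test of knockout over control (exact permutation, adjusted p = 1 for all 57). H2ac8 alone was past the unadjusted threshold (exact permutation p = 0.0278, adjusted p = 1), with peaks in 7 of 8 knockout lists and 2 of 8 control lists. This compares with 0.246% of all genes with peaks more often in knockouts, and with 0 members against 0.175% of all genes in the direction of controls. Neither the difference of the knockout effect between lines nor that between caRNA and mRNA passed in any member (lowest unadjusted exact p = 0.0556, adjusted p = 1 for both). At an unadjusted p of 0.05, 0 members differed in any of these directions. Among all genes 0.187% had a higher and 0.076% a lower effect in the Mettl14 line than in the Mettl3 line, and 0.0877% a higher and 0.263% a lower effect in caRNA than in mRNA.

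Where a gene had a sense peak in all 4 lists of a comparison, the knockout folds were mostly the higher. In Mettl14 caRNA both knockouts lay above both controls in 15 of 17 members and below in 0, where 25.2% of all such genes were above and 32.9% below. The median log2 ratio of knockout over control was 0.61 over the members and -0.05 over all genes. In Mettl3 caRNA 35 of 48 members were above and 0 below, where 23.8% and 40.7% of all genes were. The medians there were 0.35 and -0.12. In both caRNA comparisons the members thus leaned toward the knockouts, while all genes leaned toward the controls. In Mettl3 mRNA 8 of 11 members were above and 0 below, where 24.8% and 24.5% of all genes were, with medians of 0.43 and 0.00. In Mettl14 mRNA no member had a sense peak in all 4 lists, and 74.6% of all genes lay above and 2.59% below.

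Examples in Mettl14 caRNA are H2bc8, with 4.96 and 4.37 in knockouts, against 2.30 and 2.36 in controls, and H2ac4, with 3.18 and 2.86, against 1.29 and 1.42. H3c14 had 4.29 and 3.80, against 2.24 and 2.58. In Mettl3 caRNA, H4c11 had 4.60 and 4.73, against 3.05 and 2.92, and H1f6 had 11.3 and 10.5, against 6.59 and 7.35. The genotypes did not overlap in these 5 genes. Overlap was seen for H2ac13 in Mettl14 caRNA, at 7.19 and 1.76, against 3.39 and 3.26, and for H2bc9 in Mettl3 caRNA, at 5.30 and 4.51, against 4.38 and 5.13.

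**Figure D3:**
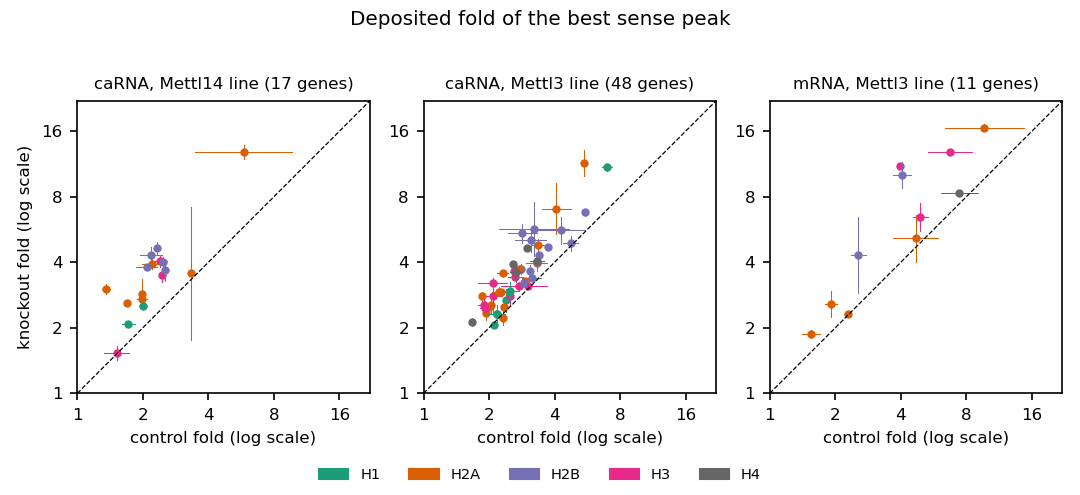
Deposited fold of the best sense peak in knockouts (y) against controls (x), both on log scales, for histone genes with a sense peak in all 4 lists of a comparison. Points are geometric means of 2 libraries, lines span both libraries, and the dashed line marks equal folds. No gene has both knockouts below both controls in any of the 3 comparisons.

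A spike-in RNA of the enrichment kit had a minus-strand peak that ran the same way and a plus-strand peak that did so only in the Mettl14 line. The minus-strand peak had folds of 11.2 and 16.5 in Mettl14 knockout caRNA, against 5.54 and 5.70 in its controls, and of 9.52 and 9.83 in Mettl3 knockout caRNA, against 8.57 and 8.26 in its controls. In mRNA it had 7.33 and 9.66 in Mettl14 knockouts, against 5.67 and 5.25 in controls, and 8.12 and 6.88 in Mettl3 knockouts, against 4.48 and 5.73 in controls. The knockout lists were above the control lists in all 4 comparisons for that strand. The plus-strand peak had 3.45 and 3.51 in Mettl14 knockout caRNA, against 2.90 and 2.74 in its controls, and 2.23 and 2.43 in Mettl14 knockout mRNA, against 1.41 and 1.78 in its controls. In the Mettl3 line it had 3.06 and 2.33 in knockout caRNA, against 2.94 and 2.54 in controls, and 1.42 and 1.39 in knockout mRNA, against 1.93 and 2.56 in controls. It thus overlapped between genotypes in Mettl3 caRNA and was lower in the knockouts in Mettl3 mRNA. The part of enrichment in the histone folds was not tested. Ranks within a list were taken over every member with a sense peak in that list, so the genes differ between lists. In Mettl14 caRNA these were 39 and 37 members in knockouts, against 22 and 17 in controls. The median member's best sense peak stood at percentile 12.5 and 12.1 of all folds in Mettl14 knockout caRNA, against 2.38 and 1.35 in its controls, and at 22.1 and 20.3 in Mettl3 knockout caRNA, against 6.35 and 7.97 in its controls. The typical histone sense peak thus ranked low in every caRNA list. In mRNA of the Mettl3 line they stood at 72.6 and 71.4 in knockouts, against 35.9 and 34.2 in controls.

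Fewer members had peaks in the Mettl14 line than in the Mettl3 line in both RNA types. In mRNA the Mettl14 controls held 2 and 2 members and the Mettl3 controls 16 and 14. Of all protein-coding genes, 34.8% and 36.3% had a peak in those Mettl14 lists, against 41.6% and 42.4% in those Mettl3 lists. The Mettl14 lists were also shorter there, with 16537 and 17738 peaks, against 22165 and 22592. In caRNA the Mettl14 controls held 25 and 20 members and the Mettl3 controls 55 and 54. There 48.4% and 47.7%, against 49.1% and 50.4%, of all protein-coding genes had a peak. H4c1, H4c11 and H4c12, 3 H4 genes, had sense peaks in all 4 Mettl3 caRNA lists and in no Mettl14 list. H4c1 had 3.96 and 3.26 in Mettl3 knockouts, against 2.50 and 2.84 in their controls. H2ac6, H2bc22 and H3c3 showed the same presence. H3c1 and H3c7, whose strand is not known, and H4c6, with either strand counted, also had peaks in those lists and in no Mettl14 list. Tested over all 16 libraries, no member passed for the Mettl14 line over the Mettl3 line (lowest adjusted p = 0.573, exact permutation). At an unadjusted p of 0.05, H3c3 and H3c13 had peaks more often in the Mettl3 line, against 2.84% of all genes, and 0 members more often in the Mettl14 line, against 1.51%. Growth, clone and library preparation of the lines cannot be told apart from the line itself.

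Sense summits lay toward the 3′ end of the short gene bodies. Over the members of at most 1000 bp, 296 sense peaks in caRNA had their summit at a median of 63.8% of the way to the 3′ end (quartiles 59.6% and 67.0%), 326 bases from the start. None fell in the first 50 bases. The class medians were 62.2% for H1, 63.1% for H2A, 64.8% for H2B, 68.4% for H3 and 61.6% for H4. In mRNA the median was 66.3% over 93 peaks. Peaks had a median width of 321.5 bases in caRNA and covered a median of 61.2% of the gene, so the summit is a coarse position in these bodies. Of all 634 member peaks, 3 had a summit that also lay in another gene, and none overlapped a pair of members.

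Peaks on the strand opposite to the gene were common in caRNA of the Mettl3 line. Of 58 members with a known strand, 38 and 32 had one in Mettl3 knockouts, against 31 and 32 in their controls. In the Mettl14 line it was 10 and 10 in knockouts, against 2 and 2 in controls. Such a peak in all 4 caRNA lists was found for 26 of 58 members (44.8%) in the Mettl3 line, where 5.94% of protein-coding genes had one, and for 2 of 58 (3.45%) in the Mettl14 line, where 7.17% did. By class, any antisense peak was found on 5 H1, 15 H2A, 13 H2B, 5 H3 and 2 H4 genes. In mRNA they were found on H2ac10, H2ac18 and H2ac19.

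The 2 members with antisense peaks in all caRNA lists of both lines were H1f2 and H2bc8. H1f2 had antisense folds of 4.77 and 3.96 in Mettl14 knockouts, 2.41 and 3.5 in their controls, 8.67 and 8.64 in Mettl3 knockouts, and 8.0 and 12.2 in their controls. H2bc8 had 4.36 and 3.71 in Mettl14 knockouts, 3.18 and 2.80 in their controls, 4.64 and 4.87 in Mettl3 knockouts, and 2.94 and 2.65 in their controls. H2bc8 had both knockouts above both controls in both lines, while H1f2 overlapped in the Mettl3 line. The linker histone genes H1f1 and H1f3 reached similar values in the Mettl3 line. H1f1 had 9.24 and 8.68 in Mettl3 knockouts, against 8.19 and 6.52 in their controls, and none in the Mettl14 line.

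Among the H2A genes, H2ac15 had antisense folds of 12.8 and 8.23 in Mettl3 knockout caRNA, against 8.06 and 11.6 in its controls, and H2ac8 had 8.97 and 9.16, against 8.27 and 6.27. These exceeded the sense folds of the same genes in the same lists. H2bc6 had 11.4 and 11.8, against 6.67 and 6.60. In Mettl3 caRNA, 19 of 26 members with an antisense peak in all 4 lists had both knockouts above both controls and 0 below, where 25.3% and 38.1% of all such genes were. In Mettl14 caRNA it was 2 of 2, where 19.3% of all genes were above and 40.7% below. In Mettl14 mRNA H2ac10, the only such member, had 11 and 6.14 in knockouts, against 5.03 and 3.44 in controls, where 69.9% of all genes were above and 5.69% below. The difference between lines in antisense peaks, tested over 5106 genes after those counts had been seen, was past the adjusted threshold in no member (lowest adjusted exact permutation p = 0.479). At an unadjusted p of 0.05 it was H2ac18 alone, more often in the Mettl3 line (2.19% of all genes), and 0 members the other way (2.57%).

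**Figure D4:**
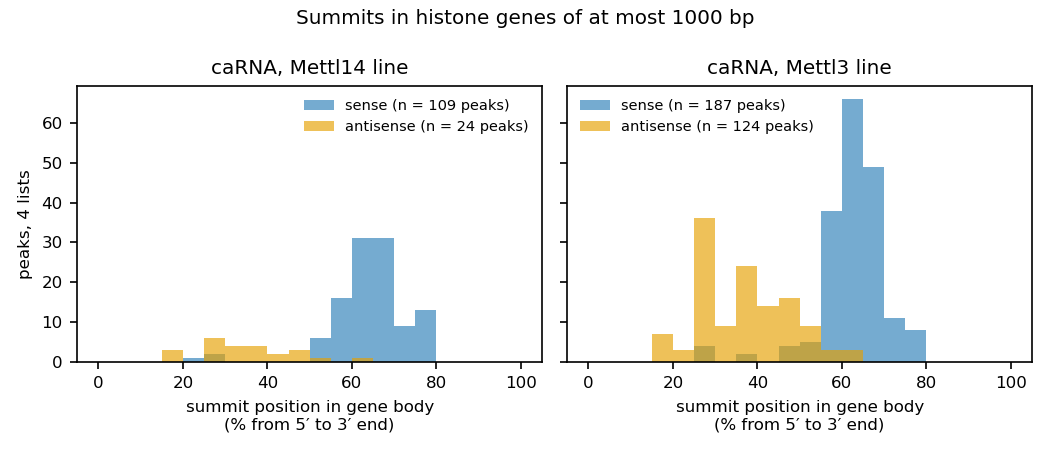
Position of peak summits along histone gene bodies of at most 1000 bp, as percent of the way to the 3′ end, in caRNA of each line (4 lists each). Sense summits gather near 63.8% of the body and antisense summits near 36.3%, and antisense peaks number 24 in the Mettl14 line, against 124 in the Mettl3 line.

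The antisense summits were set apart from the sense summits in a regular way. Over 148 antisense peaks in caRNA the median position was 36.3% of the way to the 3′ end. Pairs were formed where a member of at most 1000 bp had a peak on both strands in the same list. The antisense summit lay nearer the 5′ end in 155 of 157 pairs, at a median distance of 154 bases. These pairs came from 37 genes, each counted once per list, so they are not independent. Over all members, 158 pairs of 40 genes lay within 300 bases, at a median distance of 149 bases. In 98.7% of them the antisense summit was nearer the 5′ end. In other genes of any length it was 69.4% of 4261 pairs within 300 bases, from 1241 genes. The median distance there was 93 bases. Other protein-coding genes of at most 1000 bp gave only 6 such pairs, all from 1 gene. The same spike-in RNA had peaks on both strands in all 16 lists, with summits 178 to 257 bases apart. There the plus-strand summit lay at bases 189 to 276 and the minus-strand summit at bases 390 to 457. Whichever strand is taken as sense, the summit of the other strand was thus nearer the 3′ end, the reverse of the order in the histone genes. Whether the antisense peaks come from antisense transcripts or from reads of sense RNA assigned to the other strand was not tested.

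The upstream windows of the members shared letters that the rule did not use. Of 58 members in the promoter table, 50 held CCAAT on either strand, against 37.4% of 32851 promoters of the same length. All H1, H2A, H2B and H3 genes in the table held it, and 3 of 11 H4 genes. TATAAA was found in 34 of 58 members, against 13.6% of promoters. The octamer ATTTGCAT was found in 6 of 17 H2A and 6 of 14 H2B genes and in none of the other classes, against 1.74% of promoters. The H1 box AAACACA was found in 5 of 6 H1 genes, against 7.18% of promoters. H2ac8 and H2bc8 lie head to head, 179 bases apart, and their windows share 279 bases on opposite strands, which places the octamer and both CCAAT matches shown above in the windows of both. Yet H2bc8 had caRNA peaks in all 4 Mettl14 lists, and H2ac8 in the knockouts alone. A match is a description of letters in the window and not evidence of a bound factor.

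Histone genes outside the replication-dependent set gave other results. Of 10 histone genes listed as replication-independent, 9 had a peak in a caRNA list and 7 in an mRNA list. H1f0, H1f10 and H2ax had peaks in all 16 lists. None of the 10 was lost or gained in Mettl14 caRNA, with 5 eligible either way. Gained in Mettl3 caRNA were H2az1 and H3f3a, of 9 (4.99% of all genes), and lost in Mettl14 mRNA was H2az1, of 4 (1.84%). H2az1, a variant H2A placed near transcription starts, had 5.56 and 4.78 in the Mettl14 mRNA controls and no peak in the knockouts.

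Genes for the synthesis and processing of histone mRNA were mostly marked in every caRNA list. Of 16 such genes, 16 had a peak in caRNA, 14 of them in all 8 lists, and 14 had one in mRNA. Lsm11 encodes a subunit of the U7 particle that directs histone 3′-end cutting. It was lost in caRNA of both lines, of 15 eligible in the Mettl14 line (5.72% of all genes) and 16 in the Mettl3 line (6.13%). These calls are thus near the share of all genes. It had no peak in either knockout, against 4.94 and 4.13 in Mettl14 controls and 3.63 and 2.25 in Mettl3 controls. In mRNA it went the other way in the Mettl14 line, with 6.55 and 6.70 in both knockouts, against 4.84 in 1 control list and no peak in the other. Slbp, which encodes the stem-loop binding protein, was gained in Mettl14 mRNA, with 2.34 and 3.15 in knockouts and no peak in controls. It was 1 of 13, where 13.7% of all genes were gained. Npat, the activator of histone gene transcription, had peaks in all 16 lists.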

How the data were processed

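MeRIP-seq peak lists of 16 immunoprecipitation libraries of mouse embryonic stem cells were analysed, and the 16 input samples of the 32 in the series were not used here. The submitters' processing notes name mm10, CASAVA, Trimmomatic 0.38, HISAT2 2.1.0 and SAMtools 1.9. No source used here gives the peak caller or its scaling. The authors deposited 1 list per library, without pooling. The deposited fold was read here as a ratio of immunoprecipitation over background, and the deposited −log10 columns as each peak's p and q. The deposited score, a whole number the authors' caller wrote per peak, was not used. The deposited summit offset is in bases from the peak start. The lists give no read depth, so no counting interval can be given.

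Summits were assigned to gene bodies of a GRCm38.p6 table on either strand. Gene strands came from the RefSeq promoter table and were known for 58 of 63 members. Presence of a peak was tested per gene with an exact two-sided permutation test of labels within 4 strata, 1296 permutations, with Benjamini-Hochberg adjustment over all 17098 genes. It was tested on simulated data. Lost, gained and retained are defined by 2 against 2 lists and were not tested. Members with a peak in at least 4 lists, or lost, gained or past a test, were eligible to be named, with values in each library for the leading members of each class and those lost or gained. The members and gene lists were chosen with earlier results of these data known. Alternatives covered peak strength, list length, fold, overlap, strand, a filter on few lists, the replicate number as a block and each library left out. Python 3.11.15, numpy 2.4.6, pandas 2.3.3 and scipy 1.17.1 were used. Replicate numbers did not pair the samples: correlations of deviations lay between -0.0262 and 0.00385.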

Additional observations from a re-analysis of the deposited data

Results flagged for a closer look

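H3c15, an H3 gene of the chromosome 3 cluster, had opposite calls in mRNA of the lines. It was gained in the Mettl14 line, with folds of 6.14 and 3.93 in the knockouts and no peak in the controls. It was lost in the Mettl3 line, with no peak in the knockouts and 6.86 and 7.98 in the controls. The knockout effect, as share of knockout lists minus share of control lists with a peak, therefore differed by 2 between the lines in mRNA. Within mRNA that difference was not tested. Over both RNA types the difference between lines had an unadjusted exact permutation p of 0.0556 and an adjusted p of 1. In caRNA H3c15 had a peak in all 8 lists.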

How the results depend on the processing

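Of 261 comparisons of a count with an alternative, 246 stayed within 1.5 times and 15 did not, and the cause of the moves was not tested unless stated. With the 10000 peaks of highest −log10 p per list, gained members were 8 in Mettl14 caRNA (13 as reported), 11 in Mettl3 caRNA (0) and 2 in Mettl14 mRNA (10), lost members were 0 in Mettl3 caRNA (1), members more often in caRNA at unadjusted p were 7 (25), and members with antisense peaks in all caRNA lists were 0 in the Mettl14 line (2) and 7 in the Mettl3 line (26). With those 10000 peaks, 48 members were tested for caRNA over mRNA. Of all 11182 genes, 1425 were past that unadjusted p in either direction. With a fold of at least 2, 1 member was gained in Mettl3 caRNA. With at least 50% overlap of peak or gene, 0 were lost in Mettl3 mRNA. With sense peaks only, 0 were lost in Mettl3 caRNA, since H2bc21 has no known strand. Among genes with a peak in at least 4 lists, 2 of 55 members passed for caRNA over mRNA. The lowest adjusted exact permutation p was 0.0495, since fewer genes were tested. In either direction 444 of those 14251 genes passed. Leaving out 1 library gave 0 to 1 lost in Mettl14 caRNA (1 without control 2), 0 to 1 gained in Mettl3 caRNA (1 without control 1 or knockout 2) and 1 to 2 lost in Mettl3 mRNA (2 without control 2). It gave 13 to 18 gained in Mettl14 caRNA, 10 to 12 in Mettl14 mRNA and 6 to 7 in Mettl3 mRNA. By definition, leaving out a library can only keep or raise the counts of lost and gained members. The same holds for antisense peaks in all lists. These counts, which are among the 261 comparisons, therefore cannot show whether a call rests on 1 library. With the replicate number as a block, 0 members passed for caRNA over mRNA or for knockout over control, 17 were past an unadjusted p of 0.05 for caRNA over mRNA, and the lowest adjusted exact p was 0.300. The numbers only name libraries. The antisense and unadjusted counts were chosen after the data were seen. With 2 libraries per group and unknown depth, an absent peak is not an absent mark.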

Other observations

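Other genes with older Hist names, which the symbol rule leaves out, differed among themselves. The H4 gene H4bc24 had a peak in 8 of 8 caRNA lists and 1 of 8 mRNA lists, while H2aw had one in 1 caRNA list and 8 mRNA lists. The pseudogene H2ac14 had one in 6 caRNA lists and 1 mRNA list. H4f16, H2bu2 and H2bu1-ps had none in any list.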
